A study of Mus musculus with 6 samples.

Results

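The collagen genes are the 44 of the 21358 entries in the expression table whose symbol has the form of a collagen alpha chain, Col followed by the type number, the letter a and the chain number. Of these, 37 reached the mean FPKM of 0.1 over all tumors that was asked of every gene, and 14172 genes did so in the whole table. FPKM counts fragments per length of exon and per mapped fragments of the library, so levels of different genes can be set side by side. The members were split by the known structure of their proteins into 11 fibrillar collagens, 6 basement membrane collagens and 27 other collagens.

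RNA came from whole subcutaneous B16-F10 tumors, a melanoma line syngeneic to the female C57BL/6 hosts. All hosts had been irradiated to deplete their lymphocytes and given an adoptive cell transfer (ACT) of splenocytes cultured from pmel-1 mice, a line with a transgenic CD8 T cell receptor against the melanocyte antigen gp100. After the transfer 3 mice received IL-2 (ACT + IL-2) and 3 received NKTR-214, a pegylated IL-2 that releases active cytokine slowly (ACT + NKTR-214), and each tumor was taken at day 12 and gave 1 library of an estimated 20900000 to 24600000 reads. NKTR-214 was injected into a vein in single doses, and IL-2 into the peritoneum on consecutive days at a different dose. Both agents were given again before day 12. A tumor given neither agent was not analysed here, so a difference is one between these regimens and not from an untreated level.

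Collagens are trimers of alpha chains wound into a triple helix, which requires a glycine at the head of every residue triplet, the Gly-X-Y repeat. Fibrillar collagens (types I, II, III, V, XI and relatives) have one long unbroken helix and pack into the banded fibrils of connective tissue, made in tumors largely by fibroblasts. Type IV collagens have an interrupted helix and form the flexible sheet of basement membranes around vessels and other cells. The other collagens decorate fibrils, form microfibrils or networks, or span the cell membrane.

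The division between fibrillar and type IV members can be read in the coding sequences of the reference transcripts (GENCODE vM21, GRCm38). Counted as consecutive codon triplets that open with a glycine codon, the longest run was 337 to 344 triplets in 9 of the fibrillar members and 216 and 217 in Col24a1 and Col27a1. In the 6 type IV members it was 39 to 66 triplets, and the repeat was broken into 23 to 27 runs. The count does not set the other collagens apart: Col16a1 had a longest run of 52 triplets and 23 runs, within the type IV range. The stretches below show the repeat, with glycine codons that open a triplet of a run in capitals. They are codons 183 to 203 of Col1a1, 179 to 199 of Col3a1 (both fibrillar) and 154 to 181 of Col4a1 across 1 interruption. The Col6a5 stretch, codons 1457 to 1477, comes from its longest run of 37 triplets.
Col1a1: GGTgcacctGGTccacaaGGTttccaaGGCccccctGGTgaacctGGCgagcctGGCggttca
Col3a1: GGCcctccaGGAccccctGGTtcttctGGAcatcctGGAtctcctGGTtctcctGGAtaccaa
Col4a1: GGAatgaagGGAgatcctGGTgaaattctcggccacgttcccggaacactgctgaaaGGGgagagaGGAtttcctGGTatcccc
Col6a5: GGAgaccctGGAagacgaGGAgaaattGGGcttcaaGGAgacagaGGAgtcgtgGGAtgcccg

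Collagen genes were mostly higher in ACT + NKTR-214. At a limma adjusted p under 0.05, 21 of the 37 members tested (56.8%) were higher, against 20.7% of all genes tested, and 1 was lower, against 8.28% of all genes tested. The median log2 fold change, ACT + NKTR-214 minus ACT + IL-2 on log2(FPKM + 1), was 0.44 over the members tested and 0.05 over all genes tested. The size of that median depended on the scale: over the members it was 0.89 with a pseudocount of 0.1, 0.80 when the minimum mean was raised to 1 FPKM and 0.26 with quantile normalization, where all genes had 0.07, 0.02 and -0.10. The counts by class follow, without a test of the difference between classes. Of the fibrillar collagens 8 of 11 were higher and none was lower, of the basement membrane collagens none of the 4 tested was higher and 1 was lower, and of the other collagens 13 of 22 tested were higher and none was lower. In whole tumors a larger number of collagen-making cells and more collagen RNA per cell cannot be told apart.

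These counts depended on single tumors and on the scaling. Leaving out ACT + IL-2 replicate 2, the library with the lowest 75th percentile of FPKM over the genes tested (12.4, against 14.5 to 16.4 in the other 5), left 5 members higher and 1 lower, with 2 of the 11 fibrillar collagens higher. In that fit 2004 of the 14172 genes tested were higher and 2003 lower. The share of members higher thus did not exceed that of all genes tested. Leaving out ACT + IL-2 replicate 1 gave 25 higher and 1 lower, with 2 of the 4 basement membrane collagens higher, Col4a1 and Col4a2. Of all genes tested 3480 were then higher and 978 lower. Scaling all libraries to a common 75th percentile gave 14 higher and 1 lower, and the 7 calls lost were those of Col1a1, Col1a2, Col3a1, Col5a1, Col12a1, Col15a1 and Col28a1. That scaling changed the whole table too, from 2940 genes higher and 1173 lower to 3259 higher and 3709 lower. The calls of Col2a1, Col11a2, Col6a5, Col9a1, Col20a1 (higher) and Col4a4 (lower) were kept whichever tumor was left out. The 16 calls lost without ACT + IL-2 replicate 2 were those of Col1a1, Col1a2, Col3a1, Col5a1, Col5a2, Col5a3, Col6a1, Col6a2, Col6a3, Col7a1, Col9a2, Col12a1, Col15a1, Col18a1, Col23a1 and Col28a1, each with its sign unchanged. Leaving out the third ACT + IL-2 tumor lost the calls of Col1a1, Col3a1, Col5a1, Col9a2, Col12a1, Col15a1 and Col28a1. Col9a2 also lost its call without ACT + NKTR-214 replicate 1, and Col7a1 did so without ACT + NKTR-214 replicate 2.

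**Figure D1:**
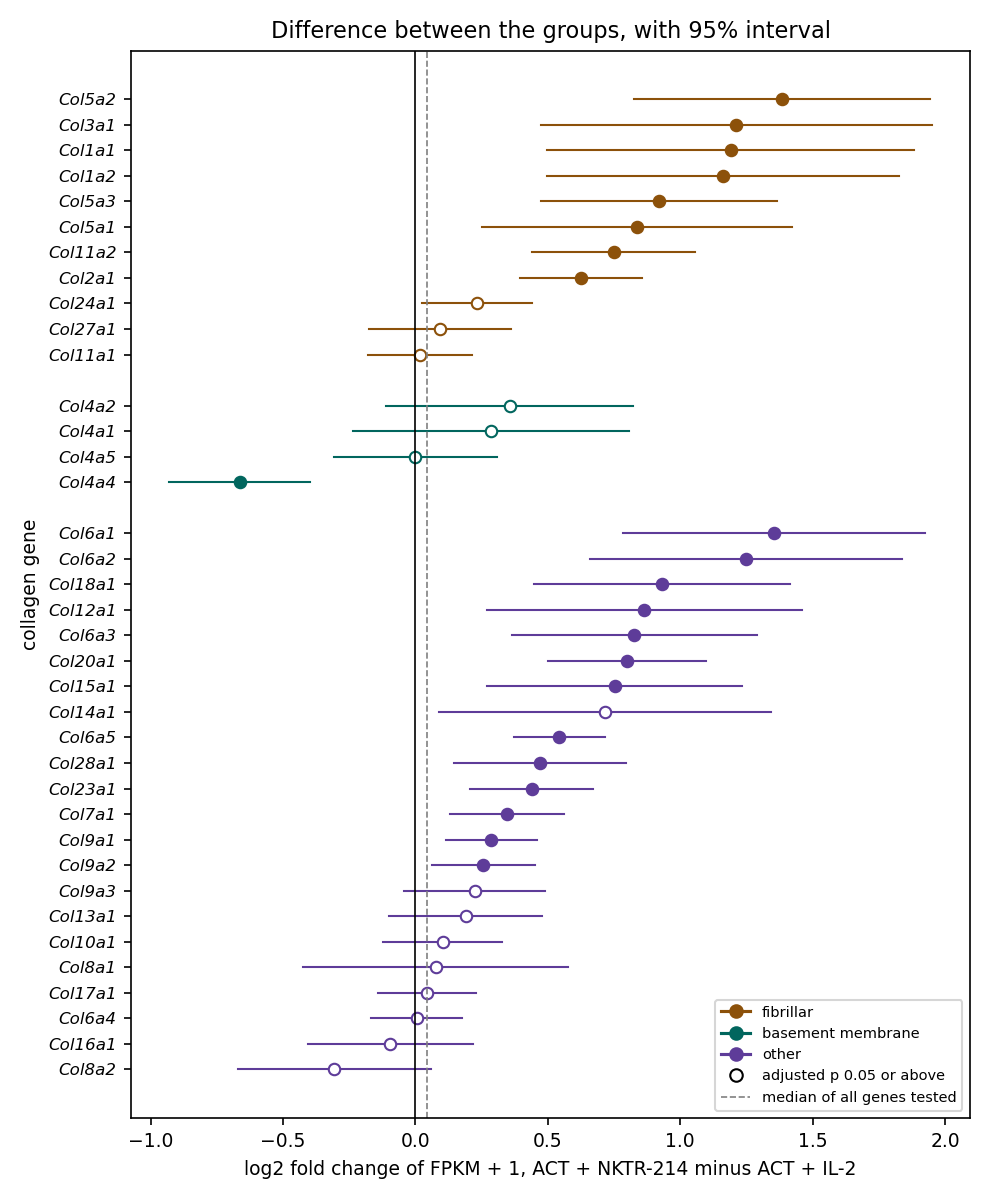
Log2 fold change of FPKM + 1 (x axis, ACT + NKTR-214 minus ACT + IL-2) of the 37 members tested (y axis, by class), with the 95% interval of the limma fit (n = 3 tumors per group). Filled points passed an adjusted p of 0.05, and the dashed line is the median of all genes tested: 8 fibrillar and 13 other collagens are filled on the right, and Col4a4 alone is filled on the left.

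Tumors within a group differed more than the calls alone show. ACT + IL-2 replicate 1 had the highest value of its group in 29 of the 37 members tested, against 55.4% of all genes tested. ACT + NKTR-214 replicate 2 had the highest of its group in 31, against 39.4% of all genes tested. Over the members tested, 15 had every ACT + NKTR-214 tumor above every ACT + IL-2 tumor, where 27.1% of all genes tested did, and 7 of the 21 members called higher had overlapping groups. The reverse separation held for Col4a4 alone, against 15.3% of all genes tested.

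Types I and III are the bulk collagens of connective tissue, and their 3 genes supplied 54.9% to 64.6% of the summed collagen FPKM in ACT + IL-2 tumors and 62.8% to 70.2% in ACT + NKTR-214 tumors. Values are given below for replicates 1, 2 and 3 of ACT + IL-2 and then of ACT + NKTR-214. Col3a1, the chain of the type III homotrimer, stood at 236, 106 and 73.1 FPKM and at 201, 427 and 268 FPKM. Col1a1, which supplies 2 of the 3 chains of type I collagen, stood at 219, 95.8 and 77.7 FPKM and at 194, 392 and 259 FPKM. Its partner Col1a2 stood at 151, 69.8 and 52.2 FPKM and at 139, 263 and 171 FPKM. For each of these genes ACT + IL-2 replicate 1 lay above ACT + NKTR-214 replicate 1, so the groups overlapped, while the other ACT + IL-2 tumors lay below every ACT + NKTR-214 tumor.

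The group means of the type I and III genes were 2.10 to 2.16 times higher in ACT + NKTR-214. Col3a1 had a mean of 138 ± 86.3 FPKM (SD, n = 3) in ACT + IL-2 and 299 ± 116 in ACT + NKTR-214, and a log2 fold change of 1.21 ± 0.35 (SE, limma adjusted p = 0.0153). The log2 fold change was 1.19 ± 0.33 for Col1a1 (adjusted p = 0.0116) and 1.16 ± 0.31 for Col1a2 (adjusted p = 0.0106). These calls were lost with scaling to the 75th percentile (adjusted p = 0.0719, 0.0562 and 0.0568 for Col3a1, Col1a1 and Col1a2) and without ACT + IL-2 replicate 2 (adjusted p = 0.152, 0.139 and 0.133), with the sign unchanged. Without ACT + IL-2 replicate 1 the log2 fold changes were 1.68, 1.63 and 1.60.

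Type V collagen is the minor fibrillar collagen that nucleates fibrils and limits their width. Col5a2 stood at 25.5, 12.2 and 10.7 FPKM and at 30.2, 55.8 and 40.1 FPKM, with no overlap between the groups. Its mean rose from 16.1 ± 8.13 to 42.0 ± 12.9 FPKM, a log2 fold change of 1.38 ± 0.26 (adjusted p = 0.000864). Col5a1, the chain that pairs with Col5a2 in the usual heterotrimer, stood at 22.7, 9.94 and 9.11 FPKM and at 17.0, 32.7 and 23.5 FPKM, with overlapping groups (log2 fold change 0.84 ± 0.28, adjusted p = 0.032). Col5a3, the third chain, stood at 13.1, 7.05 and 7.63 FPKM and at 14.0, 22.4 and 17.8 FPKM, which did not overlap (log2 fold change 0.92 ± 0.21, adjusted p = 0.00347). Each of these type V calls was lost without ACT + IL-2 replicate 2 (adjusted p = 0.0532 for Col5a2, 0.24 for Col5a1 and 0.0665 for Col5a3).

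**Figure D2:**
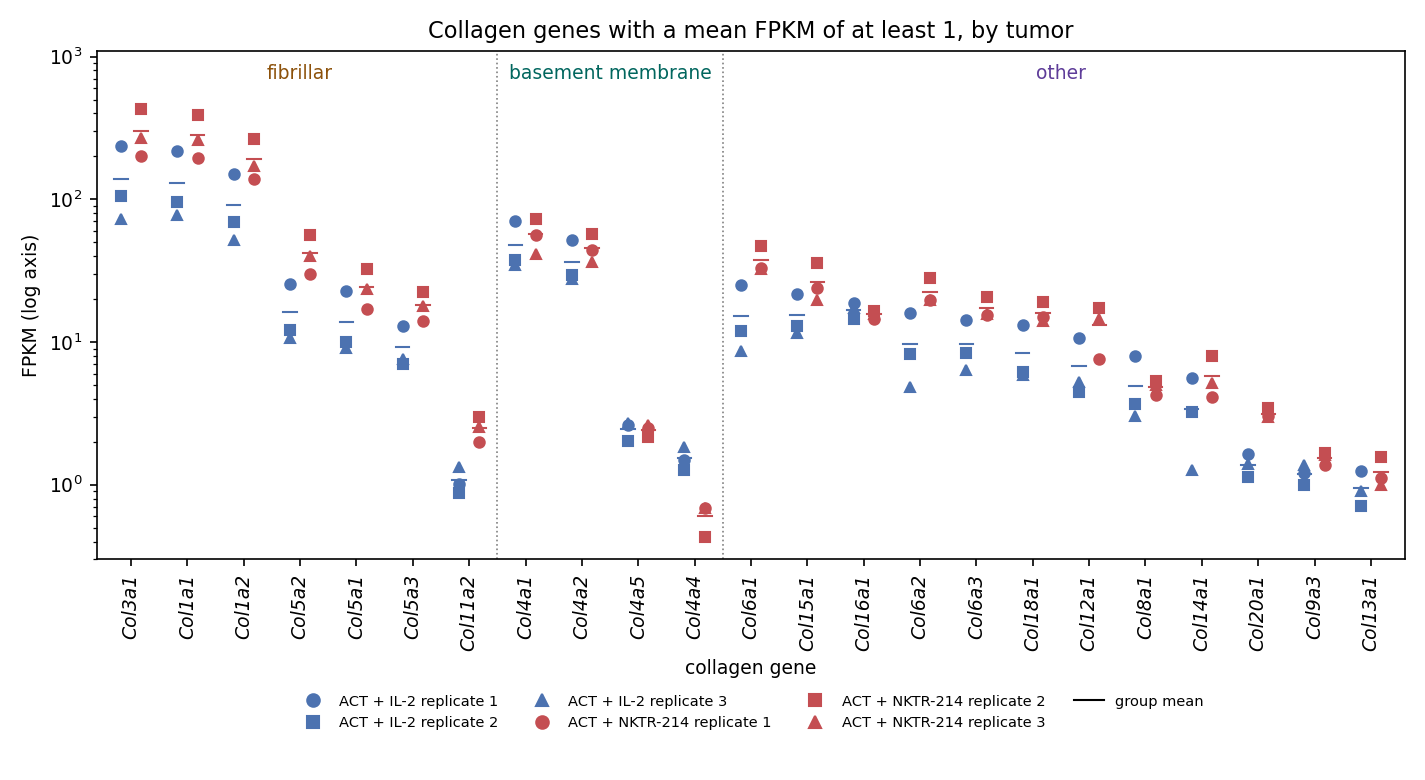
FPKM (y axis, log scale) of the 23 members tested that had a mean FPKM of at least 1 (x axis, by class and level), one point per tumor with the group mean as a bar. ACT + IL-2 replicate 1 (blue circles) sits near the ACT + NKTR-214 tumors (red) for most fibrillar genes, and Col4a4 is the gene whose 3 red points lie below the blue ones.

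The chains of types II and XI are the fibrillar collagens best known from cartilage, and they were low here. Col2a1, the type II chain, stood at 0.243, 0.177 and 0.462 FPKM and at 0.893, 1.08 and 0.993 FPKM, from 30, 21 and 50 reads and from 114, 136 and 122 reads. Its mean was 3.36 times higher in ACT + NKTR-214, the log2 fold change was 0.62 ± 0.11 (adjusted p = 0.000404), and the groups did not overlap. Col11a2 stood at 1.01, 0.880 and 1.34 FPKM and at 1.98, 2.96 and 2.55 FPKM, again without overlap (log2 fold change 0.75 ± 0.15, adjusted p = 0.00102). Its partner chain Col11a1 ranged from 0.160 to 0.384 FPKM over the 6 tumors with a log2 fold change of 0.02 (95% interval -0.18 to 0.21). Of the 6 cartilage markers looked at, Acan was at most 0.0112 FPKM in any tumor, and Matn1 was at 0 in every ACT + IL-2 tumor and at 0.0404, 0.0205 and 0 FPKM in ACT + NKTR-214. Matn3 had its higher values in ACT + IL-2, at 0.167, 0.131 and 0.175 FPKM against 0.0538, 0.0817 and 0.0699 FPKM without overlap, and was not called (adjusted p = 0.295). Hapln1, the most abundant of them, had 1.96 ± 0.584 and 3.17 ± 0.947 FPKM (adjusted p = 0.061, called in 4 of the 6 fits with 1 tumor left out), and 1 of the 3 cartilage markers tested, Comp, was higher.

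Col24a1 and Col27a1, the fibrillar members with the shorter helix, did not pass the threshold. Col24a1 ranged from 0.0866 to 0.234 FPKM in ACT + IL-2 and from 0.197 to 0.474 FPKM in ACT + NKTR-214 (log2 fold change 0.23, 95% interval 0.03 to 0.44, adjusted p = 0.0864), and was called higher in 2 of the 6 fits that left out 1 tumor. Col27a1 ranged from 0.626 to 1.02 FPKM and from 0.729 to 1.22 FPKM, a log2 fold change of 0.09 (95% interval -0.17 to 0.36).

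The main basement membrane chains did not pass the threshold. Col4a1 stood at 70.6, 37.6 and 34.7 FPKM and at 56.3, 72.8 and 41.2 FPKM. Col4a2, which is transcribed from the opposite strand beside it on chromosome 8 and joins it in the common type IV trimer, stood at 52.2, 29.5 and 27.9 FPKM and at 43.9, 57.3 and 36.6 FPKM. The groups overlapped for both genes. The log2 fold changes were 0.28 (95% interval -0.24 to 0.81, adjusted p = 0.423) for Col4a1 and 0.36 (-0.11 to 0.82, adjusted p = 0.249) for Col4a2. Without ACT + IL-2 replicate 1 both were called higher, at log2 fold changes of 0.60 and 0.64, and Col4a2 was also called without ACT + NKTR-214 replicate 3. Col4a5, a chain of specialised basement membranes, stood at 2.62, 2.04 and 2.69 FPKM and at 2.51, 2.16 and 2.64 FPKM, with a 95% interval of -0.31 to 0.31 for its log2 fold change.

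Col4a4 was the one collagen gene that was lower in ACT + NKTR-214. It encodes a chain of the alpha 3, alpha 4, alpha 5 trimer of specialised basement membranes such as that of the kidney glomerulus. It stood at 1.498, 1.27 and 1.85 FPKM and at 0.683, 0.429 and 0.688 FPKM. Its mean fell from 1.54 ± 0.294 to 0.600 ± 0.148 FPKM, the log2 fold change was -0.66 ± 0.12 (adjusted p = 0.000808), and the groups did not overlap. It stayed lower at an adjusted p of 0.00234 with 75th percentile scaling and of 0.0114 without ACT + IL-2 replicate 2, and its call was lost with no moderation, which uses each gene's own variance (adjusted p = 0.0677). Its neighbour Col4a3, which starts beside it on the opposite strand of chromosome 1, was near the limit of detection, with 8, 12 and 9 reads and 1, 12 and 8 reads. Col4a6 had 8, 5 and 4 reads and 31, 15 and 2 reads, and neither Col4a3 nor Col4a6 reached the minimum for a test. Of 7 melanocyte and melanoma markers 5 were lower and none was higher, against 8.28% of all genes tested that were lower. Only 2 of them were lower without ACT + IL-2 replicate 3, and the same count was found without ACT + NKTR-214 replicate 1 or replicate 2. Tyrp1, the most abundant of them, fell from 1956 ± 272 to 929.5 ± 182 FPKM (log2 fold change -1.08 ± 0.32, adjusted p = 0.0176, called in 3 of the 6 fits that leave out 1 tumor), and the summed level of the list was 5413 to 6933 FPKM in ACT + IL-2 and 2664 to 3763 FPKM in ACT + NKTR-214. Their part in the lower Col4a4 value was not tested.

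Class sums were also compared within each tumor, where the scaling between libraries cancels. Summed FPKM of the fibrillar collagens was 670.2, 302.7 and 233.1 in ACT + IL-2 and 599.5, 1200.1 and 784.5 in ACT + NKTR-214. Summed FPKM of the basement membrane collagens was 126.9, 70.5 and 67.2 and then 103.5, 132.8 and 81.2. The fibrillar sum was 5.28, 4.29 and 3.47 times the basement membrane sum in ACT + IL-2 and 5.79, 9.04 and 9.66 times in ACT + NKTR-214, so the groups did not overlap. Basement membrane collagens accordingly made up 13.5%, 15.6% and 18.2% of all collagen FPKM in ACT + IL-2 and 12.2%, 8.61% and 7.98% in ACT + NKTR-214, again without overlap. The fibrillar share ran from 63.0% to 71.4% and from 70.5% to 77.8%, and these ranges overlapped, as did the shares of the other collagens at 15.1% to 18.8% and 13.6% to 17.3%. These sums are given as values without a test. They are set mainly by the few most abundant genes of each class.

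**Figure D3:**
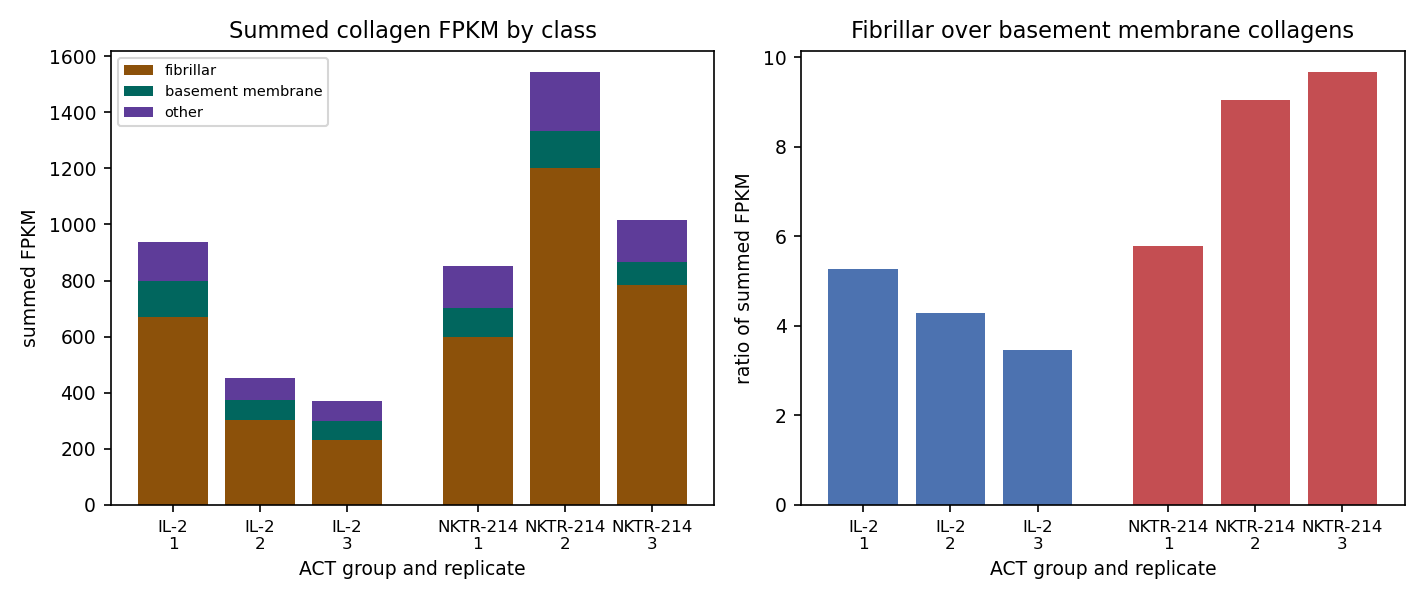
Left, summed FPKM of the fibrillar, basement membrane and other collagens in each tumor (stacked bars from 0). Right, summed fibrillar FPKM divided by summed basement membrane FPKM in each tumor, which is 3.47 to 5.28 in ACT + IL-2 (blue) and 5.79 to 9.66 in ACT + NKTR-214 (red).

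Ratios were taken within each tumor for 5 pairs of chains, of which Col3a1 and Col1a1 do not share a trimer. Col1a1 over Col1a2 was 1.45, 1.37 and 1.49 in ACT + IL-2 and 1.39, 1.49 and 1.51 in ACT + NKTR-214. Col4a1 over Col4a2 ranged from 1.25 to 1.35 and from 1.13 to 1.28, Col6a1 over Col6a2 from 1.47 to 1.78 and from 1.65 to 1.69, and Col3a1 over Col1a1 from 0.941 to 1.11 and from 1.04 to 1.09. All 4 of these ratios overlapped between the groups. Col5a2 over Col5a1 did not: it was 1.12, 1.23 and 1.18 in ACT + IL-2 and 1.78, 1.70 and 1.70 in ACT + NKTR-214, a mean of 1.17 ± 0.0529 against 1.73 ± 0.0418 (SD, n = 3). The ratio of ACT + IL-2 replicate 1, in which both chains were high, lay with the other tumors of its group. The pairs were looked at without a test, with the fold changes of both chains already known.

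**Figure D4:**
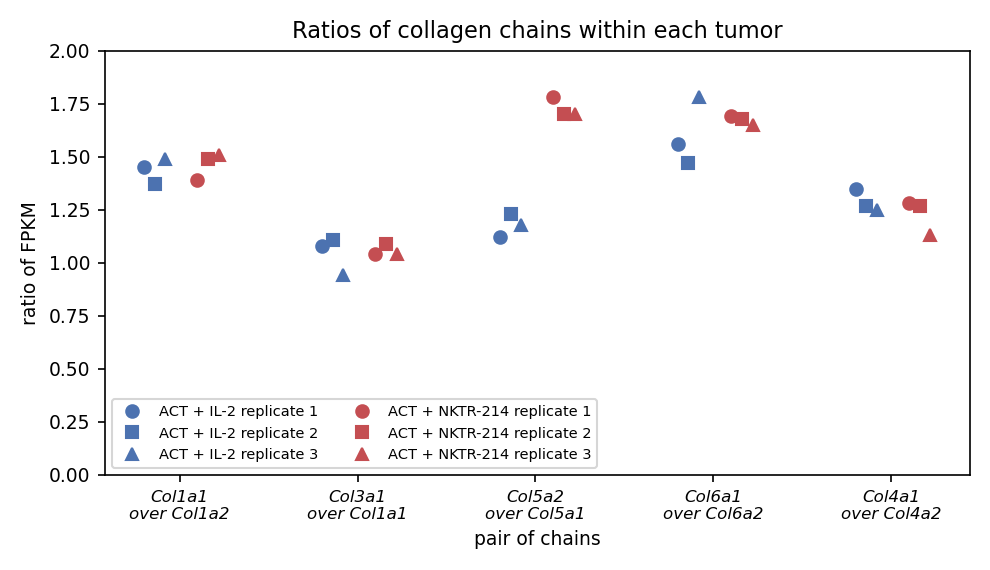
Ratio of FPKM (y axis) of 5 pairs of collagen chains (x axis) within each tumor, one point per tumor. The 3 ACT + NKTR-214 tumors lie at 1.70 to 1.78 for Col5a2 over Col5a1, above the ACT + IL-2 tumors at 1.12 to 1.23, and the groups overlap for the other pairs.

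Type VI collagen forms beaded microfibrils around many cells, and 4 of its 5 genes tested were higher, where 20.7% of all genes tested were. Col6a1 stood at 25.1, 12.0 and 8.67 FPKM and at 33.0, 47.1 and 32.6 FPKM (log2 fold change 1.35 ± 0.27, adjusted p = 0.00119). Col6a2 stood at 16.1, 8.18 and 4.88 FPKM and at 19.6, 28.0 and 19.7 FPKM, a log2 fold change of 1.25 ± 0.28 (adjusted p = 0.00295). Col6a3, the longest chain of the classical trimer, stood at 14.3, 8.35 and 6.40 FPKM and at 15.4, 20.6 and 15.7 FPKM (log2 fold change 0.83 ± 0.22, adjusted p = 0.0092). None of these 3 genes overlapped between the groups. Col6a1 lost its call without ACT + IL-2 replicate 2 (adjusted p = 0.0595), and Col6a2 and Col6a3 did so too.

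Col6a5, a later-described type VI chain that can take the place of alpha 3, separated the groups most sharply in relative terms. It was at 0.0045, 0.0047 and 0 FPKM in ACT + IL-2 and at 0.453, 0.485 and 0.448 FPKM in ACT + NKTR-214. The steps of the low FPKM values correspond to 1, 1 and 0 reads in ACT + IL-2 and 104, 110 and 99 reads in ACT + NKTR-214. From 2 reads against 313, the ratio per sequencing depth was 145 (exact 95% interval 39.9 to 1210.0), an interval that covers counting error only. On log2(FPKM + 1), which compresses low values, the log2 fold change was 0.54 ± 0.08 (adjusted p = 0.000105). The gene lies at chr9:105856078-105960643 on the minus strand (GRCm38), and 3.42% of its 50-base exon windows also occur in another gene, so most of its length is unique at that window size. Its neighbour in the family, Col6a6, had 1, 0 and 0 reads and 4, 4 and 10 reads, too few for the test. The related chain Col6a4 did not share the pattern, with 34, 23 and 17 reads and 23, 35 and 23 reads and a 95% interval of -0.17 to 0.18 for its log2 fold change.

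Fibril-associated collagens (FACITs) lie on the surface of fibrils, and 4 of the 7 tested were higher, against 20.7% of all genes. Col12a1, on type I fibrils, stood at 10.8, 4.49 and 5.27 FPKM and at 7.56, 17.4 and 14.5 FPKM, with overlapping groups (log2 fold change 0.86 ± 0.28, adjusted p = 0.0291). Its relative Col14a1 stood at 5.59, 3.25 and 1.28 FPKM and at 4.11, 7.96 and 5.16 FPKM and missed the threshold (log2 fold change 0.71, 95% interval 0.09 to 1.34, adjusted p = 0.0819). It was called higher in 3 of the 6 fits with 1 tumor left out, at a log2 fold change of 1.08 and an adjusted p of 3.83e-07 when the first ACT + IL-2 tumor was left out. Col20a1 stood at 1.63, 1.13 and 1.40 FPKM and at 3.03, 3.43 and 2.97 FPKM without overlap (log2 fold change 0.80 ± 0.14, adjusted p = 0.000444). Col16a1, the most abundant FACIT by its mean, was even across the tumors at 18.8, 14.4 and 17.2 FPKM and at 14.5, 16.5 and 15.8 FPKM, with a 95% interval of -0.40 to 0.22 for its log2 fold change.

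Type IX collagen, the FACIT of cartilage type II fibrils, was low. Col9a1 stood at 0.0503, 0.0943 and 0.0917 FPKM (5, 9 and 8 reads) and at 0.330, 0.305 and 0.313 FPKM (34, 31 and 31 reads), a log2 fold change of 0.29 ± 0.08 (adjusted p = 0.0137). Col9a2 stood at 0.182, 0.0946 and 0.0518 FPKM and at 0.453, 0.267 and 0.258 FPKM (log2 fold change 0.26 ± 0.09, adjusted p = 0.0464), from 12, 6 and 3 reads and 31, 18 and 17 reads. Both separated the groups, Col9a1 by a ratio of means of 4.01 and Col9a2 of 2.98. Col9a1 passed the minimum of 0.1 FPKM for testing through ACT + NKTR-214, as its ACT + IL-2 mean was 0.0788 FPKM. Col9a3 stood at 1.21, 0.989 and 1.37 FPKM and at 1.38, 1.66 and 1.61 FPKM, also without overlap, but was not called (log2 fold change 0.22, adjusted p = 0.201). As 6.07% of Col9a3 exon bases overlap Tcfl5, some of its reads could belong to that gene.

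The multiplexins sit in basement membrane zones, and cleavage of type XVIII collagen releases endostatin. Col15a1 stood at 21.7, 12.9 and 11.5 FPKM and at 23.8, 35.6 and 19.6 FPKM, with overlapping groups (log2 fold change 0.75 ± 0.23, adjusted p = 0.0204). Col18a1 stood at 13.1, 6.21 and 5.84 FPKM and at 14.95, 19.1 and 14.0 FPKM without overlap (log2 fold change 0.93 ± 0.23, adjusted p = 0.00572). The call of Col15a1 was lost with 75th percentile scaling (adjusted p = 0.0628) and with quantile normalization (adjusted p = 0.0503).

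Among the remaining classes 3 further genes were called, all of them at low levels. Col7a1, the anchoring fibril collagen below epithelia, stood at 0.474, 0.329 and 0.396 FPKM and at 0.641, 0.866 and 0.834 FPKM (log2 fold change 0.35 ± 0.10, adjusted p = 0.0173). Col23a1, a transmembrane collagen, stood at 0.133, 0.154 and 0.160 FPKM and at 0.442, 0.867 and 0.401 FPKM, a ratio of means of 3.83 (log2 fold change 0.44 ± 0.11, adjusted p = 0.00648). Both separated the groups. Col28a1, a collagen with von Willebrand factor A domains, stood at 0.788, 0.411 and 0.0787 FPKM and at 1.11, 1.04 and 0.683 FPKM, with overlap (log2 fold change 0.47 ± 0.15, adjusted p = 0.0306).

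The short-chain network collagens were not called in either direction. Col8a1, found in vessel walls and the eye, stood at 8.05, 3.67 and 3.05 FPKM and at 4.23, 5.36 and 5.03 FPKM, with a 95% interval of -0.43 to 0.58. Col8a2 had its highest value in ACT + IL-2 replicate 1 and ranged from 0.0664 to 1.07 FPKM in that group and from 0.117 to 0.361 FPKM in ACT + NKTR-214 (adjusted p = 0.2). It was called lower when the third ACT + IL-2 tumor or the second ACT + NKTR-214 tumor was left out. Col10a1 ranged from 0.461 to 0.814 FPKM over the 6 tumors. Of the transmembrane members, Col13a1 stood at 1.25, 0.711 and 0.898 FPKM and at 1.12, 1.55 and 1.00 FPKM (95% interval -0.10 to 0.48), and Col17a1, a hemidesmosome collagen, was at most 0.218 FPKM. The other collagens below the minimum were Col19a1, Col22a1, Col25a1 and Col26a1 besides Col6a6, with at most 9 reads in a tumor for Col19a1, Col22a1 and Col25a1 and 1 read in all for Col26a1.

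Genes that act on collagen are given list by list, in the order in which a chain meets them. Of 19 enzymes and chaperones that fold and modify collagen chains in the endoplasmic reticulum, 2 were higher, none was lower and the median log2 fold change was 0.08, where 20.7% of all genes tested were higher and 8.28% lower. These were P4ha3, a prolyl hydroxylase subunit (1.63 ± 0.797 to 3.66 ± 0.926 FPKM, log2 fold change 0.85 ± 0.20, adjusted p = 0.00416), and Colgalt1, a collagen galactosyltransferase (26.6 ± 4.46 to 42.1 ± 6.05 FPKM, 0.65 ± 0.16, adjusted p = 0.00697). Of 11 tested genes that trim procollagen or crosslink the fibril outside the cell, 9 were higher, with a median of 0.99. Lox, the lysyl oxidase that starts crosslinking, rose from 14.1 ± 9.45 to 40.7 ± 11.5 FPKM (1.60 ± 0.30, adjusted p = 0.000871). Bmp1, a C-propeptide protease, rose from 8.99 ± 3.09 to 24.5 ± 5.62 FPKM (1.37 ± 0.20, adjusted p = 0.000103). Its enhancer Pcolce2 rose from 0.416 ± 0.339 to 3.21 ± 1.28 FPKM (1.56 ± 0.19, adjusted p = 1.98e-05). Without ACT + IL-2 replicate 2 1 folding gene was higher and 1 lower and 5 processing genes were higher. The folding genes called higher were 6 without ACT + IL-2 replicate 1, and with 75th percentile scaling 4 folding genes were higher and 2 lower.

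Of 12 fibril-binding proteoglycans and partners 6 were higher and none was lower (median 0.54), and the count higher was 1 without ACT + IL-2 replicate 2, 4 when the third tumor of that group was left out and 9 when the first was. Quantile normalization gave 3 higher, as did scaling to the 75th percentile, and no minimum gave 2. The count lower was 1 when the third ACT + IL-2 tumor or the third ACT + NKTR-214 tumor was left out and 2 when the second ACT + NKTR-214 tumor was. Decorin (Dcn), which coats type I fibrils, rose from 16.6 ± 10.4 to 48.3 ± 14.5 FPKM (log2 fold change 1.60 ± 0.29, adjusted p = 0.000643). Biglycan (Bgn) rose from 87.1 ± 42.6 to 179 ± 53.7 FPKM (adjusted p = 0.00693) and Prelp from 3.46 ± 2.54 to 7.38 ± 1.39 FPKM (adjusted p = 0.0127). Of the 14 tested basement membrane partners of type IV collagen, which are laminins, nidogens, perlecan and agrin, 3 were higher and 1 was lower, with a median of 0.10, where 20.7% of all genes tested were higher and 8.28% lower. The count higher became 5 when the first ACT + IL-2 tumor was left out and 1 when the second ACT + NKTR-214 tumor was. Leaving out the second ACT + IL-2 tumor gave 1 higher and 2 lower. Lama5, a laminin chain, had 3.12 ± 0.410 and 4.53 ± 0.421 FPKM (0.43 ± 0.15, adjusted p = 0.0455), a call kept when 1 of the 6 tumors was left out and lost for each of the other 5. Other laminin chains were called at low levels. Lamb3 rose from 0.0755 ± 0.0538 to 0.685 ± 0.166 FPKM (0.64 ± 0.10, adjusted p = 0.000133) and Lamc3 fell from 0.445 ± 0.0817 to 0.136 ± 0.0542 FPKM (-0.35 ± 0.09, adjusted p = 0.00798), and both calls held in all 6 fits that left out 1 tumor. With 75th percentile scaling 3 of these partners were higher and 4 were lower.

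The counts of proteases, receptors and TGF-beta genes that follow stand against 20.7% of all genes tested that were higher. Of 7 tested collagen-cleaving proteases 4 were higher (median 1.13), Mmp2 among them. The collagenases Mmp8 and Mmp13 rose from 1.22 ± 0.627 to 12.3 ± 5.52 FPKM (log2 fold change 2.52 ± 0.28, adjusted p = 6.8e-06) and from 3.88 ± 1.53 to 24.4 ± 6.59 FPKM (2.40 ± 0.24, adjusted p = 2.02e-06). Cathepsin K (Ctsk) rose from 5.81 ± 2.01 to 18.2 ± 4.54 FPKM (1.51 ± 0.21, adjusted p = 4.95e-05). Of 10 tested collagen receptors 4 were higher (median 0.31), and these included the endocytic receptors Mrc1, at 10.2 ± 6.28 and 44.6 ± 6.56 FPKM (adjusted p = 1.7e-05), and Mrc2, at 3.85 ± 1.90 and 6.63 ± 1.53 FPKM (adjusted p = 0.0302). The inhibitory leukocyte receptor Lair1 rose from 2.90 ± 1.65 to 11.9 ± 2.38 FPKM (1.79 ± 0.24, adjusted p = 3.37e-05). The receptors called were 2 without ACT + IL-2 replicate 2. Of 8 genes for ligands, receptors, binding proteins and targets of TGF-beta, a cytokine that induces fibrillar collagens in fibroblasts, 3 were higher (median 0.38). Tgfb1 rose from 24.3 ± 8.21 to 73.5 ± 16.6 FPKM (1.58 ± 0.21, adjusted p = 3.64e-05), and its receptor Tgfbr2 from 16.2 ± 5.66 to 33.0 ± 4.87 FPKM (1.02 ± 0.20, adjusted p = 0.000933). Ltbp2, of the family of latent TGF-beta binding proteins, rose from 5.21 ± 2.48 to 9.75 ± 3.42 FPKM with overlapping groups (0.81 ± 0.26, adjusted p = 0.0295). Without ACT + IL-2 replicate 2 this list had 2 genes higher and 1 lower.

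**Figure D5:**
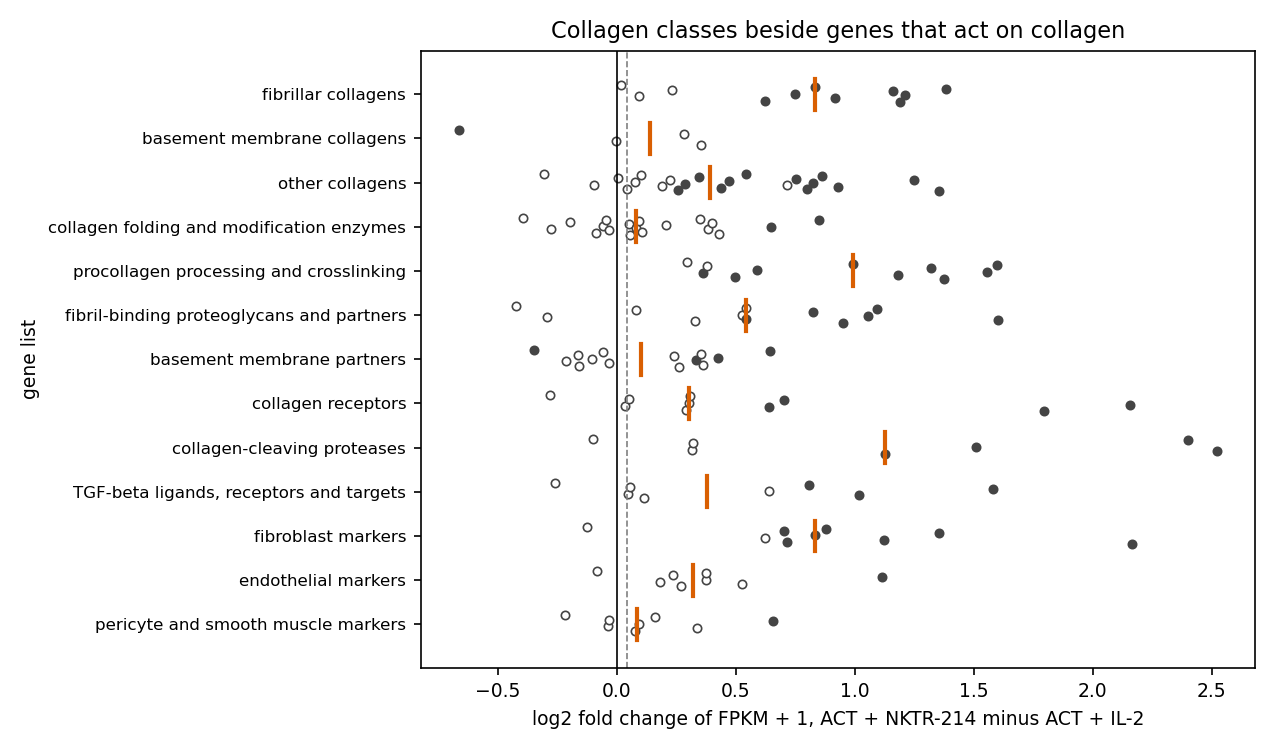
Log2 fold change of FPKM + 1 (x axis, ACT + NKTR-214 minus ACT + IL-2) of each tested gene of the collagen classes, the lists of genes that act on collagen and 3 lists of stromal markers (y axis). Filled points passed an adjusted p of 0.05, the orange bar is the median of the list and the dashed line that of all genes tested: medians run from 0.08 for the folding enzymes to 1.13 for the proteases.

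Of the stromal and immune marker lists, those of fibroblasts, macrophages and leukocytes were mostly called higher, and those of pericytes and endothelial cells were mostly not called. Fibroblast markers were higher for 7 of 9, against 20.7% of all genes tested, a share that also stands beside the counts that follow, and their summed level was 90.7, 48.4 and 41.2 FPKM in ACT + IL-2 and 119, 162 and 109 FPKM in ACT + NKTR-214. The same tumors as for the collagens, the first of ACT + IL-2 and the second of ACT + NKTR-214, led their groups. They also led in the summed levels of the macrophage, leukocyte, endothelial and pericyte lists, so this was not particular to fibroblast markers. The most abundant fibroblast marker, Gsn, rose from 26.6 ± 7.89 to 58.2 ± 10.2 FPKM (adjusted p = 0.000385). Of 8 pericyte and smooth muscle markers 1 was higher, Myh11, with summed levels of 15.9 to 43.6 and 20.8 to 34.7 FPKM, and of 8 endothelial markers 1 was higher, Pecam1, with summed levels of 34.2 to 73.5 and 49.8 to 99.4 FPKM. Pecam1, the most abundant of them, was at 11.5 ± 5.83 and 25.3 ± 9.23 FPKM with overlapping groups (adjusted p = 0.00554). Neither the Myh11 nor the Pecam1 call was kept without ACT + IL-2 replicate 2, while 7 endothelial and 3 pericyte markers were higher without ACT + IL-2 replicate 1. Leaving out ACT + NKTR-214 replicate 3 gave 4 endothelial markers higher, and leaving out ACT + NKTR-214 replicate 1 gave 2. Acta2 was at 9.55 ± 8.11 and 10.2 ± 2.17 FPKM (adjusted p = 0.509). All 6 macrophage markers and all 5 leukocyte and T cell markers were higher, with sums of 200.1 to 574 against 796 to 1346 FPKM and of 15.3 to 37.2 against 144 to 300.9 FPKM. Mrc1, counted above among the collagen receptors, is also 1 of these macrophage markers. C1qb was at 125 ± 78.6 and 364 ± 106 FPKM and Ptprc at 11.4 ± 5.53 and 60.5 ± 17.8 FPKM. Without ACT + IL-2 replicate 2 the markers called higher were 3 for fibroblasts, 3 for macrophages and 5 for leukocytes. The part of any of these cells in the collagen values was not tested.

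Other tissues that could be carried into a subcutaneous tumor were also checked, against 20.7% of all genes tested that were higher and 8.28% that were lower. Skeletal muscle markers were lower for 4 of 6, and for none without ACT + IL-2 replicate 3, with sums of 36.9 to 94.3 and 30.9 to 43.4 FPKM, and Acta1 was at 19.7 ± 8.75 and 10.6 ± 2.73 FPKM. Keratinocyte markers summed to at most 1.375 FPKM in any tumor, with Krt1 at 0 in all 6 and Krt5 at 0.248 ± 0.190 and 0.459 ± 0.364 FPKM. Adipocyte markers summed to 25.7 to 110.2 and 46.6 to 226 FPKM with 2 of 6 higher, Fabp4 among them at 36.4 ± 20.5 and 78.5 ± 39.3 FPKM, counts that single tumors moved. None was called without ACT + IL-2 replicate 2, without ACT + IL-2 replicate 3 or without ACT + NKTR-214 replicate 1, while 5 were higher without ACT + IL-2 replicate 1, 4 without ACT + NKTR-214 replicate 2 and 6 without ACT + NKTR-214 replicate 3. Schwann cell markers summed to 28.7 to 39.0 and 34.1 to 37.3 FPKM, and Cdh19 was at 16.7 ± 3.33 and 13.3 ± 1.99 FPKM. Cartilage markers summed to 1.51 to 2.70 and 2.72 to 4.57 FPKM, and the count called higher, 1 with all tumors, was 0 without ACT + IL-2 replicate 2 but 2 when the first ACT + IL-2 tumor or the third ACT + NKTR-214 tumor was left out.

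Promoters of the members were searched for 3 short motifs on both strands. The windows ran from 250 bases before to 50 bases after the start (RefSeq, GRCm38.p6), and 38 windows of 35 members were matched. Col1a1 and Col5a2 were among the members without a window. The letters GGGCGG, or CCGCCC on the other strand, were in 60.5% of member windows and 35.7% of all 32851 windows, CCAAT was in 34.2% and 37.4%, and TATAAA was in 13.2% and 13.6%. GGGCGG was found in called members such as Col5a3 and in members not called, such as Col4a2 and Col16a1. It was absent from the windows of the called members Col3a1 and Col6a1. Whether the letters go with the calls was not tested. Upstream stretches of 150 bases are shown with these letters in capitals, from the most abundant member (Col3a1, chr1:45311388-45311537, plus strand), a fibrillar member whose groups did not overlap (Col5a3, chr9:20815068-20815217, minus strand) and the member with the sharpest separation (Col6a5, chr9:105960644-105960793, minus strand). The windows hold different motifs: a TATAAA in Col3a1, a CCAAT and a pair of CCGCCC in Col5a3, and a single GGGCGG in Col6a5. A match of letters is a description and not a bound site.
Col3a1: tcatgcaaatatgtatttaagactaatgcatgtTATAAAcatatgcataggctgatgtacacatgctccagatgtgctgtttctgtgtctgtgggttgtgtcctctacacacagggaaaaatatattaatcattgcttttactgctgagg
Col5a3: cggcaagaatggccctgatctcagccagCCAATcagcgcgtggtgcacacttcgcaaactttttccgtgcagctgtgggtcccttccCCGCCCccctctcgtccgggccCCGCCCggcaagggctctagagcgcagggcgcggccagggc
Col6a5: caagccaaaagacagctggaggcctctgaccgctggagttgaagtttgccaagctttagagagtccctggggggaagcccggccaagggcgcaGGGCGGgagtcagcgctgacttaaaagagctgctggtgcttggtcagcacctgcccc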

How the data were processed

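RNA-seq was measured in 6 whole B16-F10 tumors, 3 per group, at day 12. Single-end reads were mapped by the authors with HISAT2 2.0.4 (GRCm38) and counted with HTSeq, and they deposited linear FPKM values for 21358 entries, with no scaling between libraries stated beyond FPKM. The gene annotation they used is not given in the sources used here. FPKM totals thus shift with a few abundant genes, and values of 1 library can be low together.

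Where the mean FPKM reached 0.1, genes were compared as log2(FPKM + 1) with limma 3.58.1 in R 4.3.3 (eBayes with an intensity trend, Benjamini-Hochberg adjustment over 14172 genes, threshold 0.05). Labels name the tumors biological replicates, numbered 1 to 3. Members, classes and lists were chosen with earlier results of these data known, and Ctgf stands for the list gene Ccn2. Some genes of the lists are not reported here. Values are given for each tumor for members past the threshold or with a mean FPKM of 1 or more, and as group means for up to 3 genes (of mean FPKM 1 or more) past the threshold with the largest change of each pathway list and for the most abundant gene of each marker list. Genes named beyond this, such as Acan, Matn1, Matn3, Comp, Krt1, Lamb3, Lamc3, Mmp2 and Myh11, were chosen after their values were seen.

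Low FPKM values are whole multiples of the value of 1 read. With a tolerance of at most 0.2 reads, 98.0% of 3172 genes between a mean of 0.02 and 0.5 FPKM came out whole in all tumors, which gave reads for low members and relative depths of 0.877 to 1.03. With the exon lengths of 544 single-transcript genes (GENCODE vM21), depth was about 20900000 to 24600000 reads per library. Reads are PCR copies without molecular identifiers, and an interval on them covers counting error only.

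The fit was tested on simulated data of 14172 genes for the comparison of both groups: 74 of 100 genes changed by 1 and 99 of 100 changed by 2 on the log2 scale were called, and 5 unchanged genes. The genes changed in the simulation had a mean log2(FPKM + 1) above 2, and the spread was drawn for each gene on its own. These simulated counts therefore do not cover changes in members at lower levels or shifts of a whole library. The alternatives tried were no minimum or a minimum mean FPKM of 1, a pseudocount of 0.1, 75th percentile scaling, quantile normalization, no trend, no moderation, a replicate block and each tumor left out.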

Additional observations from a re-analysis of the deposited data

How the results depend on the processing

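The count of collagen genes higher in ACT + NKTR-214, 21 as reported, was 12 with no minimum, 2 with no moderation (each gene's own variance, Col6a5 and Col9a1) and 11 with quantile normalization, and ranged from 5 to 25 when 1 tumor was left out, lowest without ACT + IL-2 replicate 2 and highest without ACT + IL-2 replicate 1. The count lower, 1 as reported, was 0 with no moderation and 1 to 2 with 1 tumor left out. For fibrillar collagens the 8 higher became 4 with 75th percentile scaling, with no minimum and with quantile normalization, and 0 with no moderation, and ranged from 2 to 9 with 1 tumor left out. Basement membrane collagens higher numbered 0 to 2 with 1 tumor left out (0 as reported), and the 1 lower became 0 with no moderation. Other collagens higher, 13 as reported, numbered 8 with a minimum mean FPKM of 1, with no intensity trend and with no minimum, 7 with quantile normalization, 2 with no moderation and 3 to 14 with 1 tumor left out. Other collagens lower ranged from 0 to 1. A pseudocount of 0.1 kept all 22 calls.

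Same-numbered tumors were not treated as pairs in the main fit. Their deviations from the group means had Pearson r of -0.21, -0.07 and 0.40 across 14172 genes. Differently numbered tumors were not compared, so these values cannot decide whether the numbers pair the tumors. With the replicate block 22 members were higher and 1 lower, and the call gained was Col14a1. The limma adjusted p of Col3a1 fell from 0.0153 to 0.000472 with it, and that of Col9a1 rose from 0.0137 to 0.0197.

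Over all genes tested, quantile normalization took the median log2 fold change from 0.05 to -0.10 and gave 2669 genes higher and 4549 lower. With it the signs of Col10a1 (-0.14), Col11a1 (-0.12), Col13a1 (-0.0921), Col17a1 (-0.0452), Col27a1 (-0.18), Col6a4 (-0.10), Col8a1 (-0.0838) and Col9a3 (-0.0694) turned, all of them genes that were not called. With 75th percentile scaling Col11a1 (-0.0010), Col6a4 (-0.0084) and Col8a1 (-0.011) turned, and with a pseudocount of 0.1 Col4a5 did (0.00015). With 1 tumor left out, signs turned within the ranges -0.0315 to 0.0956 for Col11a1, -0.0173 to 0.114 for Col17a1, -0.0119 to 0.18 for Col27a1, -0.0900 to 0.0577 for Col4a5, -0.0216 to 0.0343 for Col6a4, -0.15 to 0.43 for Col8a1 and -0.0384 to 0.92 for Acta2, the positive ends mostly without ACT + IL-2 replicate 1. No called member changed sign under any alternative, and the cause of these changes was not tested. Depth limits the members with few reads, of which 7 were not tested.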
